A study of Mus musculus with 4 samples.

Results

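A set of 8 transcripts that mark or drive the epithelial-mesenchymal transition (EMT) were followed in mouse mammary tumours with and without a functional Nr1d1 gene, which encodes the circadian repressor REV-ERBα. The genes are the transcription factors Snai1, Snai2, Twist1, Zeb1 and Zeb2 and the mesenchymal products Vim, Fn1 and Cdh2. They were taken by symbol from the count table, and all 8 were found among 23238 gene symbols and passed the filter on low counts that left 14801 tested genes. The tumours came from female FVB mice aged 14 weeks that carried the polyoma virus middle T antigen (PyMT) as their oncogene. PyMT was thus shared by all 4 libraries, of which 2 were labelled Nr1d1+/+;PyMT (replicates 1 and 2, here WT1 and WT2) and 2 were labelled Nr1d1-/-;PyMT (replicates 1 and 2, here KO1 and KO2). Sets of 4 values are in that order. The sources used here do not give the promoter that drives PyMT, the design of the Nr1d1 null allele or whether each library came from its own animal. P-values therefore measure only the spread between these libraries, which may be technical.

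In EMT, epithelial cells loosen their junctions and take on features of migratory mesenchymal cells. Snail (Snai1), Slug (Snai2) and the ZEB proteins are zinc finger repressors that bind E-box sequences such as CAGGTG in the promoters of epithelial genes, Cdh1 above all, while Twist1 is a basic helix-loop-helix factor. Vimentin (Vim), fibronectin (Fn1) and N-cadherin (Cdh2) are products that mesenchymal cells make, and a change from E-cadherin to N-cadherin is known as the cadherin switch. The same genes are also used outside carcinoma cells, by fibroblasts, endothelium, macrophages, muscle and nerve, all of which bulk tumour RNA can contain. In bulk tissue, fewer cells of a type and less RNA per cell cannot be told apart.

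The libraries held 15905404 to 19116279 counts. Levels below are CPM, counts relative to library size after trimmed mean of M-values (TMM) scaling, with SDs over n = 2 per genotype, and a log2 fold is Nr1d1-/- over Nr1d1+/+. On this scale 1 count was worth 0.0473 and 0.0479 CPM in the Nr1d1+/+ libraries and 0.0733 and 0.0621 CPM in the Nr1d1-/- libraries. Keratin transcripts of luminal epithelium were abundant in every library (Krt8 at least 1269 CPM, Krt18 at least 1654 CPM), and Epcam stood at 702 to 1221 CPM. Nr1d1 did not separate the labels, with 20.2 and 10.3 CPM in WT1 and WT2 against 10.6 and 12.8 CPM in KO1 and KO2 (log2 fold -0.37, SE 0.351, adjusted p = 0.436). Without WT1 it turned to 0.14, and counts over exons that an allele still transcribes would check nothing, so every direction rests on the labels. Over all 14801 tested genes 16.5% were called higher and 17.3% lower, the background for each count of calls below, and a gene that did not pass is not thereby shown to be level. The ribosomal transcript Rn45s took 2.94% and 3.39% of counts in the Nr1d1+/+ libraries and 4.36% and 7.64% in the Nr1d1-/- libraries, a share that separated the genotypes. Vim and Cdh2 were both still called with Rn45s and other structured RNAs left out, and the part of this difference in other results was not tested. KO1 stood apart in skeletal muscle transcripts, whose marker list summed to 847 CPM there and to 21.9 to 30.3 CPM elsewhere.

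Vimentin, the intermediate filament protein of mesenchymal cells, was the most abundant of the 8 and rose. Vim (chromosome 2, 13573927 to 13582826, plus strand, GRCm38) was at 191 and 257 CPM in WT1 and WT2 and at 423 and 561 CPM in KO1 and KO2. Both Nr1d1-/- libraries lay above both Nr1d1+/+ libraries, and in each genotype replicate 2 was the higher. The mean went from 224 ± 46.1 to 492 ± 98.2 CPM (SD, n = 2), a log2 fold of 1.14 (SE 0.219, 95% interval 0.64 to 1.63, edgeR adjusted p = 0.00629). The rise passed whichever library was left out, at log2 folds of 0.90 to 1.34. With library size as the only scaling it was 0.75 (adjusted p = 0.0254), a setting that moved the median log2 fold of all genes to -0.38.

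Krt8 and Krt18, keratins of the epithelium, rose as well, though not past the threshold with trends in GC content and transcript length removed. Vim over Krt18, as a ratio of CPM within a library, was 0.0931 and 0.155 in WT1 and WT2 and 0.0948 and 0.156 in KO1 and KO2, so the ratio overlapped between genotypes. Set against the summed fibroblast markers, Vim was 0.311 and 0.232 in the Nr1d1+/+ libraries and 0.391 and 0.486 in the Nr1d1-/- libraries, which did not overlap. The promoter of Vim is shown as the start region of the member that rose at the highest level, on the plus strand of GRCm38.p6 from RefSeq, chr2:13574061-13574360.
Vim: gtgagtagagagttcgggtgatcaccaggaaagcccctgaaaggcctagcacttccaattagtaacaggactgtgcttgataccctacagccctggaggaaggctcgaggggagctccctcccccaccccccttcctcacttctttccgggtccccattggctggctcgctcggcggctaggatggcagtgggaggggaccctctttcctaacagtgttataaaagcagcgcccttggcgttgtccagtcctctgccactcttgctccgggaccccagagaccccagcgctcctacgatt
Neither CAGGTG, the E-box of Snail and ZEB proteins, nor AGGTCA, the core hexamer to which REV-ERB binds, occurred on either strand of these 300 bases, so no letters are in capitals. Among 32851 windows of 300 bases around RefSeq starts (250 bases before to 50 after), 20.2% held CAGGTG or its complement and 16.3% held AGGTCA or its complement.

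**Figure D1:**
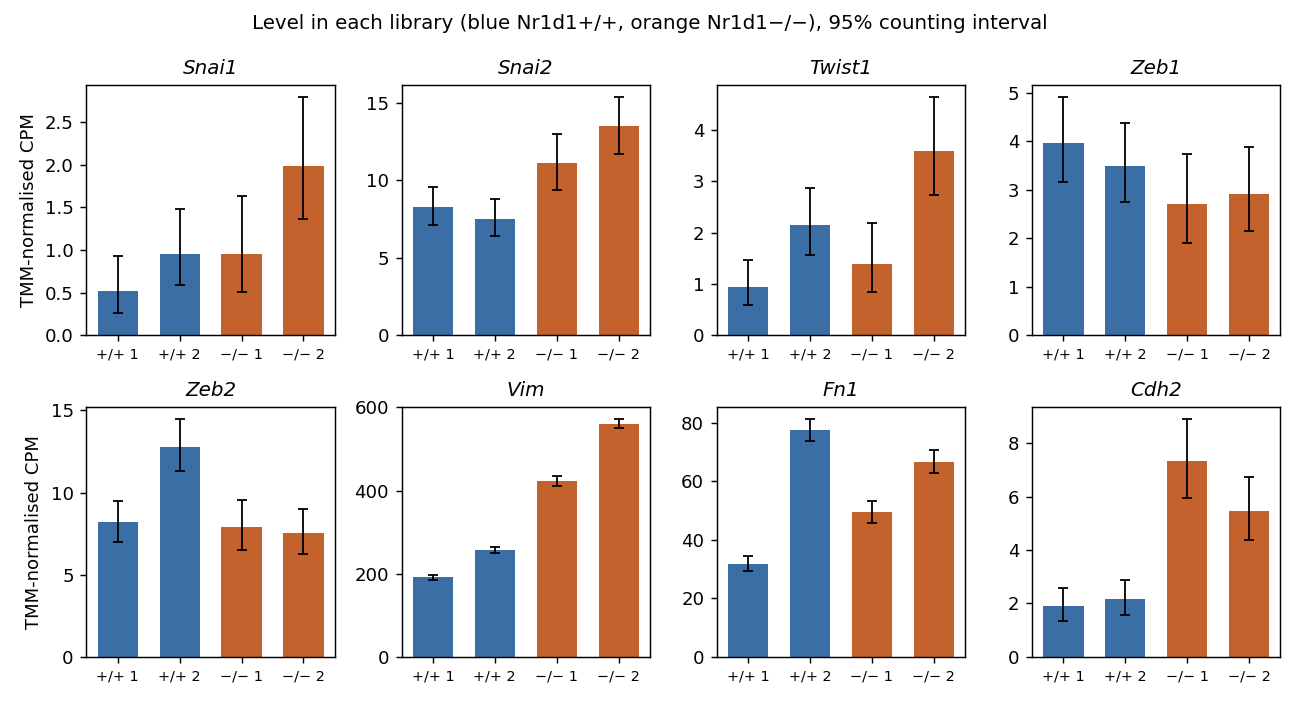
TMM-normalised CPM of the 8 genes in each library (bars; blue Nr1d1+/+, orange Nr1d1-/-), each panel on its own axis from 0, with 95% exact Poisson intervals that cover counting error only. Vim and Cdh2 stand higher in both Nr1d1-/- libraries, Zeb1 stands slightly lower in both, and Fn1 varies more between the Nr1d1+/+ libraries (31.8 and 77.5 CPM) than between genotypes.

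N-cadherin, the cadherin of neural and mesenchymal cells, rose from a low level. Cdh2 (chromosome 18, 16588877 to 16809246, minus strand) was at 1.89 and 2.15 CPM in the Nr1d1+/+ libraries and at 7.33 and 5.46 CPM in the Nr1d1-/- libraries, from 40, 45, 100 and 88 counts. The groups did not overlap, and the counting intervals of the Nr1d1+/+ libraries ended below those of the Nr1d1-/- libraries. Its mean went from 2.02 ± 0.185 to 6.4 ± 1.32 CPM, a log2 fold of 1.65 (SE 0.405, 95% interval 0.73 to 2.57, edgeR adjusted p = 0.0155). The fold kept its size without WT1 (1.51, adjusted p = 0.0961) and without WT2 (1.72, adjusted p = 0.0824), but in neither case passed the threshold. The higher of the Nr1d1-/- libraries was replicate 1, the one with skeletal muscle transcripts, and without it Cdh2 still rose (1.43, adjusted p = 0.0484).

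E-cadherin moved the other way. Cdh1, the main adhesion molecule of epithelia, fell from 358 and 305 CPM to 188 and 212 CPM (log2 fold -0.73, SE 0.178, adjusted p = 0.0152). Its call was lost without WT1 (-0.65, adjusted p = 0.0638), without KO1 (-0.65, adjusted p = 0.0682) and with trends in GC content and transcript length removed (-0.51, adjusted p = 0.0718). Counts of Cdh1 per count of Cdh2, not corrected for length, were 189 and 141 in the Nr1d1+/+ libraries and 25.6 and 38.8 in the Nr1d1-/- libraries, so Cdh1 outnumbered Cdh2 in every library and by less where Nr1d1-/- was the label. Cdh2 aside, 10 classical cadherins and catenins were tested, with a median log2 fold of -0.47. Of these 10, 4 fell (40%, against 17.3% of all genes), 0 rose and 6 did not pass. Besides Cdh1 the falls were catenins that tie cadherins to actin or to the membrane. Ctnnd1 (p120) fell from 249 ± 11.5 to 65.6 ± 0.113 CPM. Ctnnb1 (β-catenin) fell from 239 ± 6.4 to 141 ± 13.3 CPM and Ctnna1 (α-catenin) from 261 ± 15.1 to 169 ± 7.53 CPM. Jup, a further listed catenin, was at 226 ± 16.8 and 298 ± 61.9 CPM and did not pass. P-cadherin, Cdh3, was at 4.59 ± 1.41 and 5.49 ± 0.836 CPM (log2 fold 0.25, adjusted p = 0.642), which turned to -0.054 without WT2 and to -0.12 under library size only. The fibroblast cadherin Cdh11 was at 5.08 ± 1.56 and 3.6 ± 0.432 CPM (-0.49, adjusted p = 0.383). Calls of lower cadherins and catenins numbered 2 without WT1 or WT2, 1 without KO1, and 2 with the trends removed (where 11.2% of all genes fell), and 1 member rose without KO1 or KO2. Ctnnb1 and Ctnna1 were among those lost, Ctnnb1 at adjusted p = 0.0501 without WT2 and 0.0509 without KO1, and Ctnna1 at 0.0758, 0.0556 and 0.0792 without WT1, WT2 and KO1.

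Fibronectin, the matrix glycoprotein that integrins bind, did not differ detectably. Fn1 (chromosome 1, 71585520 to 71653200, minus strand) was at 31.8 and 77.5 CPM in WT1 and WT2 and at 49.5 and 66.6 CPM in KO1 and KO2. Both Nr1d1-/- values lay between the Nr1d1+/+ values, which differed 2.43-fold. The log2 fold was 0.09 (SE 0.365, 95% interval -0.74 to 0.92, edgeR adjusted p = 0.873), so a change within these bounds cannot be told from none. It turned to -0.46 without WT1, to -0.16 without KO2 and to -0.31 with library size only. Collagen III (Col3a1) had the nearest pattern among the other listed genes, at 186, 484, 322 and 408 CPM in the same library order.

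Receptors and assembly factors of fibronectin gave 1 rise, 2 falls and 7 genes that did not pass among 10 tested, with a median log2 fold of 0.36. These shares (10% higher, 20% lower) were near those of all genes (16.5% and 17.3%). The integrin αv gene Itgav fell from 55.7 ± 2.39 to 23.4 ± 3.61 CPM (adjusted p = 0.00391), and Itgb1, the β1 chain shared by many integrins, fell from 290 ± 4.38 to 182 ± 28.7 CPM (log2 fold -0.67, adjusted p = 0.0223). Itga5, which pairs with Itgb1 in the classical fibronectin receptor, was at 7.29, 21.2, 17.2 and 18.6 CPM and did not pass (log2 fold 0.33, adjusted p = 0.584; -0.29 without WT1 and -0.067 under library size only). Ilk, the integrin-linked kinase, rose from 75.6 ± 9.79 to 127 ± 16.1 CPM (0.75, adjusted p = 0.0178). Itgb1 did not pass without WT1 (adjusted p = 0.06), without WT2 (0.0691), without KO1 (0.112) or with the trends removed (log2 fold -0.29). Ilk did not pass without WT1 (0.129), without KO1 (0.0689), with the trends removed (0.35) or with library size only (0.36).

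Neither Snail family member of the set passed the test. Snai2, which encodes Slug (chromosome 16, 14705852 to 14709385, plus strand), was at 8.28 and 7.52 CPM in the Nr1d1+/+ libraries and at 11.1 and 13.5 CPM in the Nr1d1-/- libraries. Both Nr1d1-/- libraries were higher, with a mean of 12.3 ± 1.69 against 7.9 ± 0.539 CPM, but the log2 fold of 0.64 (SE 0.29, 95% interval -0.02 to 1.30) had an edgeR adjusted p of 0.121. Snai1, which encodes Snail (chromosome 2, 167538195 to 167542814, plus strand), rested on 11, 20, 13 and 32 counts, or 0.52 and 0.958 CPM against 0.953 and 1.99 CPM. WT2 and KO1 were level, so that the groups overlapped. The log2 fold of 1.02 (SE 0.677, 95% interval -0.52 to 2.56, edgeR adjusted p = 0.273) was 0.35 without KO2 and 1.49 without WT2. The paralog Snai3 was not tested: it had 0 counts in both Nr1d1+/+ libraries, and 9 and 6 counts in KO1 and KO2, equal to 0.66 and 0.372 CPM. A count of 0 allows up to 3 counts, or 0.142 and 0.144 CPM, in the Nr1d1+/+ libraries.

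Snail is known to bind E-boxes in its own promoter, so that start region is given here with CAGGTG in capitals, chr2:167537945-167538244, plus strand, GRCm38.p6, from RefSeq.
Snai1: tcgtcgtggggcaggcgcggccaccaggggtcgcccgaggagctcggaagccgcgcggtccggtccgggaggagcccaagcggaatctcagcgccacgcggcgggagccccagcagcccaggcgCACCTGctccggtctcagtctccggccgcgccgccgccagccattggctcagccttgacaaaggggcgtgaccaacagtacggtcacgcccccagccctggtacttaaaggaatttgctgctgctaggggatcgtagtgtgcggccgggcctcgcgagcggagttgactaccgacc
The capitals mark 1 match, on the opposite strand as CACCTG, that begins 126 bases before the start. AGGTCA did not occur in this window. RefSeq windows were at hand for 4 of the 8 genes, and neither hexamer occurred in the window of Twist1 or in any of the windows of Zeb2. A match of letters is a description of the sequence and not evidence of binding.

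Twist1 differed more between replicates than between genotypes. Twist1 (chromosome 12, 33957671 to 33959829, plus strand), best known from mesoderm and from metastasis of mammary carcinoma, was at 0.946 and 2.15 CPM in WT1 and WT2 and at 1.39 and 3.6 CPM in KO1 and KO2. Replicate 2 exceeded replicate 1 by 2.28-fold in Nr1d1+/+ and by 2.58-fold in Nr1d1-/-, more than the 1.65-fold between genotypes. The log2 fold of 0.72 (SE 0.626, 95% interval -0.70 to 2.14, edgeR adjusted p = 0.402) turned to -0.17 without KO2. Its paralog Twist2 had 0.426, 0.287, 1.54 and 0.496 CPM and too few counts for a test.

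The ZEB genes lay slightly lower in the Nr1d1-/- libraries, without passing. Zeb1 (chromosome 18, 5591860 to 5775467, plus strand) was at 3.97 and 3.5 CPM in the Nr1d1+/+ libraries and at 2.71 and 2.92 CPM in the Nr1d1-/- libraries, which did not overlap. Its log2 fold was -0.40 (SE 0.409, 95% interval -1.33 to 0.52, edgeR adjusted p = 0.473). Zeb2 (chromosome 2, 44983632 to 45117395, minus strand) was at 8.18 and 12.8 CPM against 7.92 and 7.51 CPM, where the lower Nr1d1+/+ library nearly met the higher Nr1d1-/- library. Its log2 fold was -0.45 (SE 0.332, 95% interval -1.20 to 0.31, edgeR adjusted p = 0.325). Both signs turned with the GC and length trends removed, to 0.037 for Zeb1 and 0.11 for Zeb2. Zeb2os, an antisense gene inside the Zeb2 locus, had 29, 20, 6 and 26 counts, and the sources used here do not say if reads were counted by strand. MicroRNAs of the miR-200 family repress both ZEB transcripts. None of the 7 symbols looked up for them and for miR-205 was among the gene symbols counted, so none could be tested.

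Among the 8 genes, 2 were called, both higher, and 6 did not pass. Over all 14801 tested genes edgeR called 33.9% in either direction, 16.5% higher and 17.3% lower, so the share of the 8 genes (25%) was no larger than the background. Cdh2 was not called without WT1 or without WT2, which left 1 call in each case, beside 21.3% and 14.4% of all tested genes. Leaving out KO1 or KO2 kept both calls, beside 25.2% and 30.9%. Cdh2 was not tested with a filter at a mean of 5 CPM, which left 1 call beside 42.9%. With library size only 8.65% of all genes were called higher and 29.8% lower, with the GC and length trends removed 11% and 11.2%, and both calls held in either setting. The groups did not overlap for 5 of the 8, against 70.5% of all tested genes; KO libraries lay above for 3 (34.4% of all) and below for 2 (36.2% of all). The median log2 fold of the 8 was 0.68, beside -0.0065 over all tested genes. With the GC and length trends removed it was 0.28, beside -0.058 over all genes. The 5 transcription factors included no call, and the calls were the structural products Vim and Cdh2. Patterns over the libraries varied among the 8: centred log2 levels of Zeb1 and Zeb2 differed by a root mean square of 0.283, those of Snai1 and Twist1 by 0.188, and those of Zeb2 and Cdh2 by 0.936.

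**Figure D2:**
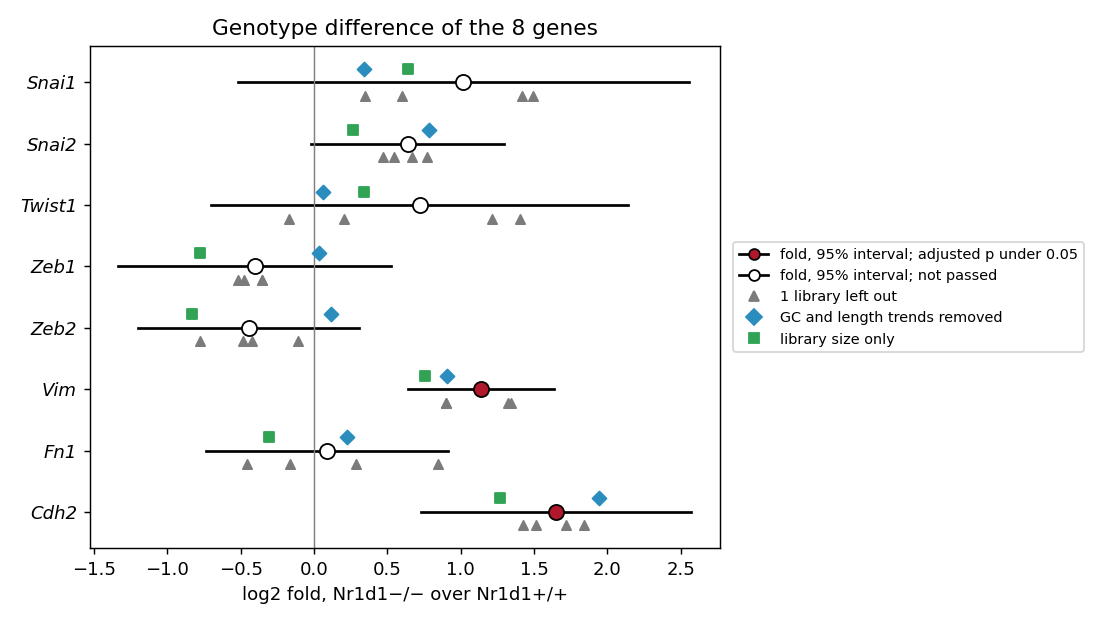
Log2 fold (Nr1d1-/- over Nr1d1+/+) of each gene with its 95% interval (circle and line), and the fold with 1 library left out (triangles), with GC and length trends removed (diamonds) and with library size only (squares). The intervals of Vim and Cdh2 lie above 0 and those of the other genes cross it.

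Levels of different genes can be set side by side only per length. Per kilobase of the longest protein-coding transcript, mean levels over the 4 libraries were 163 CPM per kb for Vim, 6.78 for Fn1, 4.99 for Snai2, 1.24 for Twist1, 0.999 for Zeb2, 0.869 for Cdh2, 0.681 for Snai1 and 0.564 for Zeb1. This order pools the genotypes, and Cdh2 ranked 7 and 8 in the Nr1d1+/+ libraries but 4 and 6 in the Nr1d1-/- libraries, while Zeb2 ranked 4 in both Nr1d1+/+ libraries and 5 and 7 in the Nr1d1-/- libraries. Vim ranked first in every library. Fn1, at 3.83 to 9.32 CPM per kb, overlapped Snai2 at 3.72 to 6.66, and the ranges of the last 5 genes also overlapped their neighbours. Snai2 was thus the most abundant of the transcription factors per kb, and its lowest library (3.72) lay above the highest value of any other factor (2.21, Twist1 in KO2). With the length of all annotated exons instead, Snai2 (4.99) ranked above Fn1 (4.82) and 4 of the 8 genes kept their rank.

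Several other factors known to induce EMT rose. Of 15 listed, 10 could be tested, and 5 of these rose while 1 fell and 4 missed the threshold, with a median log2 fold of 1.33 and shares of 50% higher and 10% lower. The osteoblast factor Runx2 had the highest fold of the named ones, with 20.9 ± 4.8 and 82 ± 4.03 CPM (log2 fold 1.97, SE 0.222). Prrx1, a homeobox factor of mesenchyme, had 32.9 ± 2.72 and 115 ± 27.9 CPM (log2 fold 1.80, SE 0.221). The SOX factor gene Sox4 rose from 90.4 ± 11.6 to 309.9 ± 117 CPM, Sox9 from 222 ± 63.8 to 555 ± 214 CPM and the zinc finger gene Zfp281 from 47.1 ± 0.0394 to 120 ± 20.7 CPM. These 5 rises were also called with the trends removed. Sox4, Sox9 and Runx2 are also used by epithelial cells of the mammary gland. Foxc1, a forkhead factor, was the gene that fell, from 41.2 ± 8.9 to 25.5 ± 2.89 CPM (adjusted p = 0.0483), and no fall was called without WT2, without either Nr1d1-/- replicate or with the trends removed. Cdh2 was nearest in pattern to Zfp281 (47.1, 47.1, 135 and 105 CPM) and to the adipocyte gene Retn (0.852, 1.1, 4.11 and 2.61 CPM) among 211 candidates, at root mean square distances of 0.0781 and 0.0799 in log2 over 4 libraries, and 26 and 30 of all tested genes lay at least as near.

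Factors that hold cells in the epithelial state included Grhl1, Grhl2, Esrp1 and Esrp2, which all fell. Of 13 tested genes 6 fell, 2 were higher and 5 missed the threshold, with a median log2 fold of -0.09 and shares of 15.4% higher and 46.2% lower. Grhl2, a grainyhead factor that represses Zeb1, fell from 56.4 ± 2.52 to 21.6 ± 0.926 CPM (log2 fold -1.38, SE 0.198, adjusted p = 0.00274), and Grhl1 from 72.3 ± 5.73 to 33.8 ± 4.01 CPM. The epithelial splicing regulators fell as well, Esrp1 from 125 ± 10.4 to 56.9 ± 6.12 CPM and Esrp2 from 48.2 ± 11.5 to 19.5 ± 2.53 CPM. None of these 4 lost its call in any setting or without any library. Klf5 rose from 18.9 ± 3.84 to 75.6 ± 15.4 CPM. The OVO-like repressors were low: Ovol1 at 4.83 ± 0.478 and 6.53 ± 0.324 CPM (adjusted p = 0.349) and Ovol2 at 4.73 ± 0.599 and 4.79 ± 0.801 CPM (adjusted p = 0.986), the sign of Ovol2 turning under several settings. Without WT2, and with library size only, 1 member rose in place of 2.

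Epithelial genes that Snail and ZEB proteins are known to repress went both ways. Among 25 tested genes 6 were called higher, 8 lower and 11 neither, with a median log2 fold of 0.07 and shares of 24% higher and 32% lower. The tight junction scaffold gene Tjp1 fell from 56.4 ± 6.53 to 16.5 ± 1.52 CPM (log2 fold -1.77, SE 0.215), and so did Spint1, a membrane protease inhibitor, from 53.1 ± 7.08 to 19.1 ± 2.81 CPM. Simple keratins rose, Krt8 from 1311 ± 59.6 to 2477 ± 26 CPM and Krt18 from 1855 ± 284 to 4029 ± 605 CPM, as did Rab25, a GTPase of epithelial recycling, from 45.9 ± 2.17 to 104 ± 4.74 CPM. Epcam was at 1064 ± 222 and 828 ± 179 CPM and did not pass (log2 fold -0.36, adjusted p = 0.251; -0.73 and 0.0226 with library size only). With the trends removed 2 members rose and 5 fell, of which 2 and 4 were also called with the trends left in; the calls of Krt8 (0.48, adjusted p = 0.113), Krt18 (0.56, adjusted p = 0.11) and Rab25 (0.54, adjusted p = 0.0511) were among those lost. Without KO1 5 fell, and Krt18 missed the threshold (adjusted p = 0.0524).

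The start region of Krt18 holds both hexamers and is printed as that of a listed target that rose, chr15:102027966-102028265, plus strand, GRCm38.p6, from RefSeq, with CAGGTG and AGGTCA on either strand in capitals.
Krt18: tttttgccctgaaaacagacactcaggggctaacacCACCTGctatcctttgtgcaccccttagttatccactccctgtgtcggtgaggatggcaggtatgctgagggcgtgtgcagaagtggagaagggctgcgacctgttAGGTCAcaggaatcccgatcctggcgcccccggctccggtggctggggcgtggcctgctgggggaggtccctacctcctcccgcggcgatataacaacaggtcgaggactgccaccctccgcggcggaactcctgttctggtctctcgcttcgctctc
The E-box hexamer, here as CACCTG, begins 214 bases before the start and AGGTCA begins 108 bases before it. Windows were found for 19 of the 26 listed targets. No binding was measured, and Krt18 stood at 2056 and 1654 CPM in the Nr1d1+/+ libraries and at 4457 and 3601 CPM in the Nr1d1-/- libraries.

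**Figure D3:**
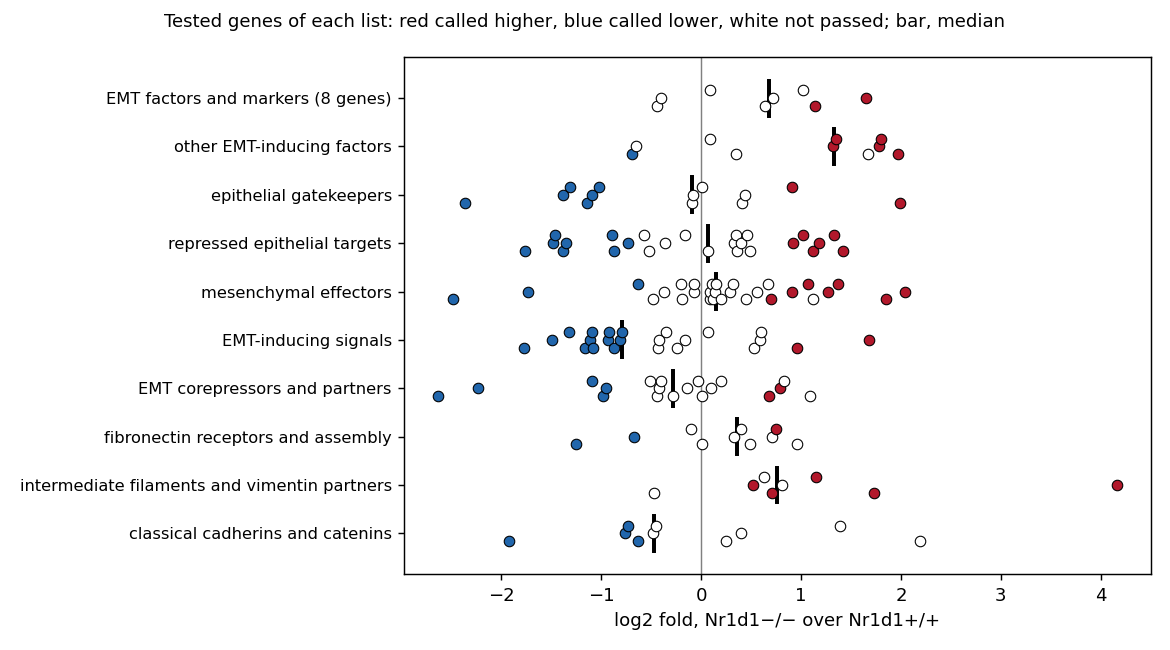
Log2 fold (Nr1d1-/- over Nr1d1+/+) of every tested gene of the 8-gene set and of the lists around it (points; red called higher, blue called lower, white not passed; vertical bar, median of the list). Genes of the EMT-inducing signals list, which also holds other regulators, sit mostly below 0, while repressed epithelial targets spread to both sides.

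Products of mesenchymal cells beyond the 3 in the set included Mmp3, Loxl2, Acta2 and Col1a1, which rose. Among 29 tested genes 7 were called higher, 3 lower and 19 neither, with a median log2 fold of 0.14. The shares were 24.1% higher and 10.3% lower, against 16.5% and 17.3% of all genes. The stromal metalloproteinase gene Mmp3 had 5.95 ± 0.791 and 21.5 ± 3.17 CPM (log2 fold 1.86, SE 0.281). Loxl2, a collagen cross-linking oxidase, had 23.2 ± 0.229 and 55.9 ± 21.6 CPM (1.27, 0.81 without KO1). Smooth muscle actin, Acta2, rose from 23.6 and 21.1 CPM to 49.2 and 135 CPM (2.04, and 1.12 without KO2). Col1a1 rose from 272 ± 46.9 to 509 ± 38.5 CPM (0.91), and missed the threshold without WT1 (adjusted p = 0.0572) and with library size only (0.0538). Col3a1 was at 335 ± 211 and 365 ± 61.2 CPM (0.12, adjusted p = 0.82), and ran from -0.45 without WT1 to 0.95 without WT2, where it passed (adjusted p = 0.0308). The number called higher was 4 without WT1, 5 without KO2, 10 without KO1 and 4 with library size only, and the number called lower was 0 without WT2.

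Genes listed as signals that induce EMT were mostly lower. The list also holds regulators that are not inducers, among them Gsk3b, Smad7 and Bmp7. Gsk3b was called lower, from 50.5 ± 3.83 to 27.6 ± 0.556 CPM, and Smad7 and Bmp7 did not pass. Calls were lower for 12 of 23 tested genes and higher for 2, and 9 missed the threshold, with a median log2 fold of -0.80 and shares of 8.7% higher and 52.2% lower. Stat3 fell from 307 ± 25.5 to 89.6 ± 9.3 CPM (log2 fold -1.78, SE 0.181), Smad3, which carries the TGF-β signal to the nucleus, from 51 ± 5.41 to 18.1 ± 0.00795 CPM (-1.49, SE 0.209), and the hypoxia factor Hif1a from 54.7 ± 8.88 to 21.8 ± 1.19 CPM (-1.33, and -0.79 with the trends removed). Of the TGF-β ligands, Tgfb3 fell from 239 ± 46.8 to 107 ± 0.725 CPM and Tgfb2 from 51.8 ± 1.21 to 24.5 ± 6.26 CPM (log2 fold -1.08, adjusted p = 0.00926), while Tgfb1 rose from 25.1 ± 1.5 to 48.8 ± 4.89 CPM. The call of Tgfb1 (0.96, adjusted p = 0.00902) was lost without WT2 (adjusted p = 0.0677), with library size only (0.0524) and with the trends removed (0.303). The type I receptor Tgfbr1 fell from 37.6 ± 2.07 to 19.6 ± 3.59 CPM (-0.94, adjusted p = 0.0147), which did not pass without WT2 (0.0785), without KO1 (0.0527) or with the trends removed (0.261). The type II receptor Tgfbr2 was at 70, 72.8, 36.9 and 69.6 CPM (-0.42, adjusted p = 0.27), and passed without KO2 (-0.97, adjusted p = 0.0149). With the trends removed 7 members fell and 1 rose, and without WT2 0 rose and 9 fell. Without WT1 8 fell, and 1 rose without WT1 or KO1 and with library size only.

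Genes listed as corepressors and partners of EMT factors gave 2 rises, 5 falls and 12 genes that did not pass among 19 tested. Their median log2 fold was -0.29, with shares of 10.5% higher and 26.3% lower. The rises were Ctbp2, from 48.2 ± 2.19 to 77 ± 12.2 CPM, and Ehmt2, from 162 ± 12.8 to 280.1 ± 19.7 CPM. Suz12, a subunit of Polycomb complex 2, fell from 99.6 ± 4.04 to 21.1 ± 0.0113 CPM (log2 fold -2.24, SE 0.189), Rcor1 (CoREST) from 16 ± 4.34 to 2.5 ± 2.08 CPM and Id2, an inhibitor of helix-loop-helix factors, from 264 ± 10.7 to 137 ± 8.83 CPM. Rcor1 had -2.63 and -3.97 without KO2. Bmi1, of Polycomb complex 1, fell from 39.4 ± 3.97 to 18.4 ± 3.21 CPM, which did not pass without WT2 (adjusted p = 0.0545) or with the trends removed (0.0718). Falls numbered 3 without WT2, 3 with the trends removed and 10 with library size only, and rises 0 without WT2 or with library size only and 1 without WT1 or KO1 or with the trends removed.

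Intermediate filament genes beside Vim, listed together with the vimentin partner Plec, were higher or did not pass. Plec was among the calls, at 296 ± 2.07 and 425 ± 55.6 CPM (edgeR adjusted p = 0.0495). Of 8 tested genes 5 were called higher, 0 lower and 3 neither, with a median log2 fold of 0.76 and shares of 62.5% higher and 0% lower. The basal keratin gene Krt14 was called at 62.1 ± 4.56 and 206 ± 5.36 CPM (log2 fold 1.73, SE 0.174), and Lmna, lamin A/C of the nuclear envelope, at 245 ± 8.16 and 542 ± 80.5 CPM. Desmin, the filament of muscle, was at 1.37, 2.39, 61.4 and 6.52 CPM, and the log2 fold of Des went from 4.16 to 1.79 without KO1. Krt7 rose from 173 ± 49.7 to 283 ± 3.81 CPM (0.71), and missed the threshold without WT2 (adjusted p = 0.248), without KO1 (0.0774), without KO2 (0.0718) and with library size only (0.206). Rises numbered 3 without WT2, without KO2 and with library size only.

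Over the pathway lists around the set, 144 distinct genes were tested, of which 30 rose (20.8%), 40 fell (27.8%) and 74 did not pass, beside the 16.5% and 17.3% of all genes given above. The genes nearest in pattern to each of the 8 were taken from these lists and the marker lists. For Vim the nearest listed genes were Fbln1 (2.32, 3.64, 5.13 and 6.39 CPM) and Tie1 (3.69, 4.02, 6.82 and 8.63 CPM), at distances of 0.148 and 0.161, and 85 and 111 of all tested genes lay at least as near. For the others, brackets give the distance and then the number of all tested genes at least as near. Snai1 was nearest to Krt5 (0.0396, 1) and Mmp2 (0.0837, 12), and Snai2 to Jag2 (0.0336, 9) and Plec (0.0592, 51). Twist1 was nearest to Mmp2 (0.122, 15) and Krt5 (0.176, 33), and Zeb1 to Smarca4 (0.0403, 29) and Hdac1 (0.0512, 62). Zeb2 was nearest to Col1a2 (0.0438, 5) and Synm (0.0855, 29), and Fn1 to Col3a1 (0.0576, 2) and Cd68 (0.181, 32). The 0.5 CPM added before taking logs shrinks differences of low genes such as Snai1 (0.52 to 1.99 CPM).

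Markers of cells that use these genes outside the carcinoma, and of the epithelium, were summed in each library. The sums were higher in both Nr1d1-/- libraries for every list except fibroblast, luminal epithelium included. Summed endothelial markers were at 58.1 and 68 CPM in Nr1d1+/+ and 92.5 and 134 CPM in Nr1d1-/- libraries, and 5 of 11 rose (45.5%, against 16.5% of all genes), among them Eng and Vwf. Kdr and Cdh5, a receptor and a cadherin that define endothelium, lay lower in both Nr1d1-/- libraries without passing. Kdr was at 3.97 and 7.09 against 1.91 and 3.04 CPM (log2 fold -1.14, adjusted p = 0.0922), and Cdh5 at 11.9 and 13.3 against 6.82 and 11.4 CPM (-0.46, adjusted p = 0.302). Vwf did not pass without WT2 (adjusted p = 0.0664). Macrophage markers were at 351 and 436 CPM against 505 and 645 CPM, with 4 of 12 rising and 1 falling. The rises were the complement genes C1qa (28.9 ± 1.12 to 111 ± 28.7 CPM), C1qb and C1qc, and Cx3cr1. Cd14 fell from 174 ± 0.784 to 118 ± 11.6 CPM. The other 7, among them Adgre1 (log2 fold 0.016) and Cd68 (0.21), did not pass. Basal epithelial markers were at 170 and 178 against 380 and 526 CPM, with 5 of 10 rising and 1 falling. Pericyte and smooth muscle markers were at 95.7 and 115 against 162 and 220 CPM, with 3 of 10 rising and 1 falling. These rises were Acta2 and Cnn1, which also count among the basal markers, and Des (61.4 CPM in KO1 and 6.52 CPM in KO2). Notch3 fell from 34.4 ± 1.56 to 14.4 ± 2.45 CPM. Adipocyte markers were at 42.3 and 77.8 against 195 and 129.6 CPM, with 4 of 9 tested rising.

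Fibroblast markers were at 616 and 1107 CPM against 1079 and 1154 CPM, with 1 of 11 rising (Col1a1) and none falling. No fibroblast, endothelial, macrophage, pericyte, luminal or basal marker was at 0 counts in any library. Nerve and glial markers were at 418 and 347 against 1020.1 and 621 CPM, higher in KO1 as Cdh2 was, with 4 of 9 tested rising and 1 falling. S100b rose from 4.07 ± 0.605 to 22.3 ± 5.12 CPM and Ncam1 from 15.2 ± 8.82 to 93.5 ± 50.7 CPM, while Cdh19 fell from 17.4 ± 0.728 to 4.23 ± 0.545 CPM. Sox10, which some mammary epithelial cells also express, was at 247 to 270.4 CPM in all libraries, and Foxd3 was at 0 counts in all of them. T and NK cell markers summed to 11.8 and 14.5 against 21.2 and 20.5 CPM, with 2 of 6 tested rising, and Cd8a, Nkg7, Ncr1 and Klrb1c were at 0 counts in KO1. Luminal markers were at 13897 and 10904 against 14751 and 15088 CPM, with 3 of 10 rising and 1 falling. Leaving out 1 library moved several of these counts. Endothelial rises numbered 2 without WT1, WT2 or KO2, basal rises 3 without WT2, adipocyte rises 2 without WT1 or KO1, and T and NK cell rises 0 without WT1 or WT2 and 1 without KO2. Fibroblast rises numbered 3 without WT2, 2 without KO1 and 0 without WT1, where 1 marker fell. The single lower call was lost for macrophages without WT1, WT2 or KO2, for basal cells without WT2, KO1 or KO2, and for luminal cells without WT1 or KO1. With the trends removed 1 adipocyte marker, 1 luminal marker and 1 T and NK cell marker rose, and with library size only 3 endothelial markers rose and 4 luminal markers fell. Skeletal muscle markers rose in 4 of 5 tested, and in 0 without KO1; Myh4, Myh1, Tnnt3 and Pvalb were at 0 counts in KO2. What part these differences have in the rises of Vim and Cdh2 was not tested.

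**Figure D4:**
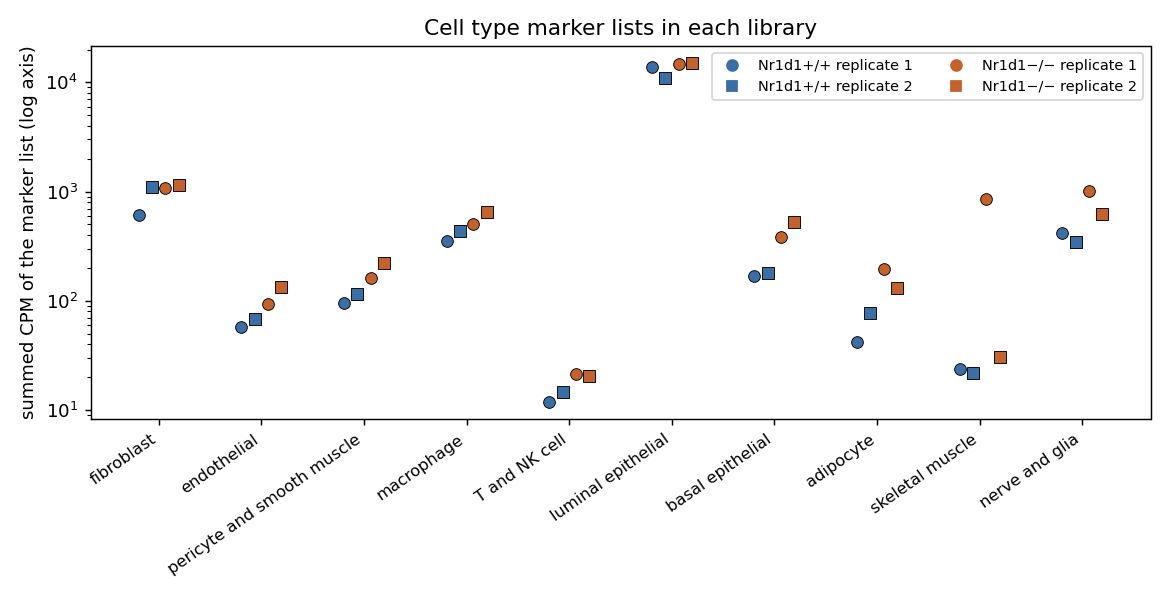
Summed TMM-normalised CPM (log axis) of each cell type marker list in each library (blue Nr1d1+/+, orange Nr1d1-/-; circles replicate 1, squares replicate 2). Sums are higher in both Nr1d1-/- libraries for every list except fibroblast. Fibroblast markers in WT2 (1107 CPM) stand level with the Nr1d1-/- libraries, and skeletal muscle markers are high in KO1 (847 CPM).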

How the data were processed

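RNA sequencing gave transcript counts for 4 libraries of mammary tumours, 2 per genotype. The RNA was total RNA (Trizol) and the kit a Clontech SMARTer Stranded one, per the labels' protocols. TopHat alignment to mm10 was used, per the submitters' processing notes. The files deposited by the authors hold raw counts per gene symbol, with totals of 15905404 to 19116279. The sources used here do not give versions, the counting program, the annotation or the strand setting. Intervals of single libraries are exact Poisson intervals and cover counting error only.

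Genes were kept by filterByExpr (minimum count 10), scaled by TMM and compared in edgeR 4.0.16 (R 4.3.3) by its quasi-likelihood test (legacy=FALSE), genotype being the only term with 2 residual degrees of freedom. Calls needed an adjusted p under 0.05 (Benjamini-Hochberg over all 14801 tested genes). Symbols were joined to GENCODE M21 (GRCm38, the assembly of mm10) for 22866 of 23238 symbols. The GC and length alternative fitted natural splines with 5 degrees of freedom to each library over 14642 genes. Likeness was the root mean square distance of centred log2(CPM + 0.5) values. The tests were tested on simulated counts. Alternatives were other scalings, filters and estimates, DESeq2 1.42.0, limma-voom (limma 3.58.1), a replicate block, leaving out Rn45s and structured RNAs, and leaving out each library. The exon union length was added after seeing the data. The members and lists were chosen with earlier results of these data known. Named genes were the 8 members, Nr1d1, up to 4 called genes per list with the lowest p and 22 fixed genes. Sox9, Foxc1, Tgfb2, Gsk3b, Smad7, Bmp7, Ctbp2, Ehmt2, Plec, Kdr, Cdh5, Zeb2os, Sox10 and the markers at 0 were named after their values were seen. Some genes that this rule takes are not reported here. Figures were drawn with matplotlib 3.10.9.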

Additional observations from a re-analysis of the deposited data

How the results depend on the processing

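Both calls among the 8 genes, Vim and Cdh2, kept their direction in every alternative that tested them, and Vim kept its call. Cdh2 ranged from 1.43 to 1.84 with 1 library left out, missing the threshold without WT1 or WT2 at 40 and 45 counts. Over all genes, 2446 higher and 2565 lower calls became 1281 and 4410 with library size only and 1613 and 1633 with GC and length trends removed. With 1 library left out they ran from 1036 to 2358 higher and from 1170 to 2401 lower, the fewest without WT2. Without WT1, 1470 were higher. Over the pathway lists 30 higher calls became 19 with library size only, and 40 lower calls became 25 with the trends removed and 25 to 38 with 1 library left out, the fewest without WT2.

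Signs that reversed all belonged to differences that did not pass, apart from Ckm. With the trends removed Zeb1 had a log2 fold of 0.037 and Zeb2 of 0.11. With library size only Fn1 had -0.31, Col3a1 -0.27, Itga5 -0.067, Cdh3 -0.12 and Ovol2 -0.37. Ovol2 also had -0.023 with no filter and -0.51 with the trends removed. With 1 library left out the ranges were -0.17 to 1.40 for Twist1, -0.46 to 0.85 for Fn1, -0.80 to 0.14 for Nr1d1, -0.17 to 0.16 for Ovol2, -0.45 to 0.95 for Col3a1, -0.29 to 1.27 for Itga5 and -0.054 to 0.56 for Cdh3. The muscle gene Ckm ran from -0.26 without KO1 to 6.22 without KO2. By exon union length, a choice made after seeing the data, 4 of 8 genes kept their rank per kb. The causes were not tested.

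The labels give both genotypes replicate numbers without saying what a number shares, and replicate differences correlated at 0.0256 across 14801 genes, so the pairing was not shown. With a replicate block 2622 genes were called higher and 2704 lower, Vim had 1.14 and Cdh2 1.64, and 2 of the 8 genes were called.

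Snai1 rested on 11 to 32 counts, and its interval of -0.52 to 2.56 held both 0 and the fold of Vim. Leaving out a library leaves a lone sample that is assumed to vary like the other group.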
